A study of Mus musculus with 3 samples.

Results

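*Mkx*, *Six2*, *Eya1* and *Eya2* are 4 regulators known from developing tendon, and their rows were read by symbol in each single-cell library, as 4 of 27755 genes listed for the D10 culture, 4 of 27755 for the E14.5 tail and 4 of 25936 for D6 PM. The D10 culture was made from mouse embryonic stem cells (mESCs) that carry the ScxGFP reporter, a transgene that marks cells in which the tendon gene *Scx* is active. LDN-193189, which blocks BMP receptors, was present during aggregation, CHIR, a Wnt agonist, together with LDN-193189 then directed the cells to paraxial mesoderm (PM), the tissue that forms the somites, and TGFβ1, the smoothened agonist SAG and FGF2 were given from D6 to D10. D6 PM is the culture before TGFβ1 and SAG. The E14.5 tail was dissociated from embryos of mouse dams with the same reporter, and the sources used here do not say how many embryos were pooled. Each condition is 1 library of unsorted cells after removal of dead cells, so that no test between conditions was possible, and condition and library, with its depth, cannot be told apart.

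Mkx (Mohawk) is a homeodomain protein of the TALE class, related to the Iroquois factors, and is known for the activation of collagen and other matrix genes in tendon. Six2 is a homeodomain protein of the Six-type class, known for keeping nephron progenitors undifferentiated and known also from developing limb tendons. Eya1 and Eya2 have no DNA-binding domain of their own. They are drawn to DNA by Six-type proteins, act with them as coactivators that also carry a phosphatase activity, and are known from the onset of the muscle program in somites, from kidney and from ear, and both were described early on in limb connective tissue.

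Transcripts were counted by unique molecular identifiers (UMIs), with a median per cell of 5622 over 7821 cells of the culture, 13512 over 2052 cells of the tail and 8171 over 5954 cells of D6 PM. Clusters are those deposited with the counts, by their code, and culture and tail share 1 set of codes. Code 1 was read as tendon, since 7 of 8 tendon markers were at least 2-fold above the other cells in culture and in tail, although *Mkx* is 1 of these markers and so not independent of the name. Code 4 was read as fibrocartilage, with 6 of 6 cartilage markers in both libraries. Code 2 had 3 of 3 proliferation markers and only 2 of 8 tendon markers in culture and 1 of 8 in tail, and is called the proliferating tendon cluster because its cells carried *Scx* at 2699 CPM (UMIs per 1000000 UMIs of all genes) in culture and 1664 in tail. Among D6 cells, code 4 was read as somite-like, with 5 of 7 markers of paraxial mesoderm and somite. It also had 4 of 7 tendon, 3 of 6 cartilage and 2 of 6 muscle markers, and among its 10 leading genes the muscle marker *Myf5* was the 1 gene on any marker list. At most 10 cell barcodes were shared by any pair of libraries.

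Levels are in CPM, with numerator and denominator each added up across a cluster's cells within 1 library. The intervals in parentheses are 95% intervals and cover counting error only. A share of cells is given after each cell was thinned to 3000 UMIs, which leaves out 1157 shallower cells of the culture, 100 of the tail and 1006 of D6 PM. All 4 genes were sparse. *Mkx* had 1314 UMIs in the culture, 457 in the tail and 180 in D6 PM. *Six2* had 21, 229 and 8 in the same order. *Eya1* had 528, 462 and 585, and *Eya2* had 138, 251 and 1028. Most of the cells that carried one of the genes had a single UMI of it, from 61.4% of them for *Eya1* in the tail to 100% for *Six2* in the culture.

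**Figure D1:**
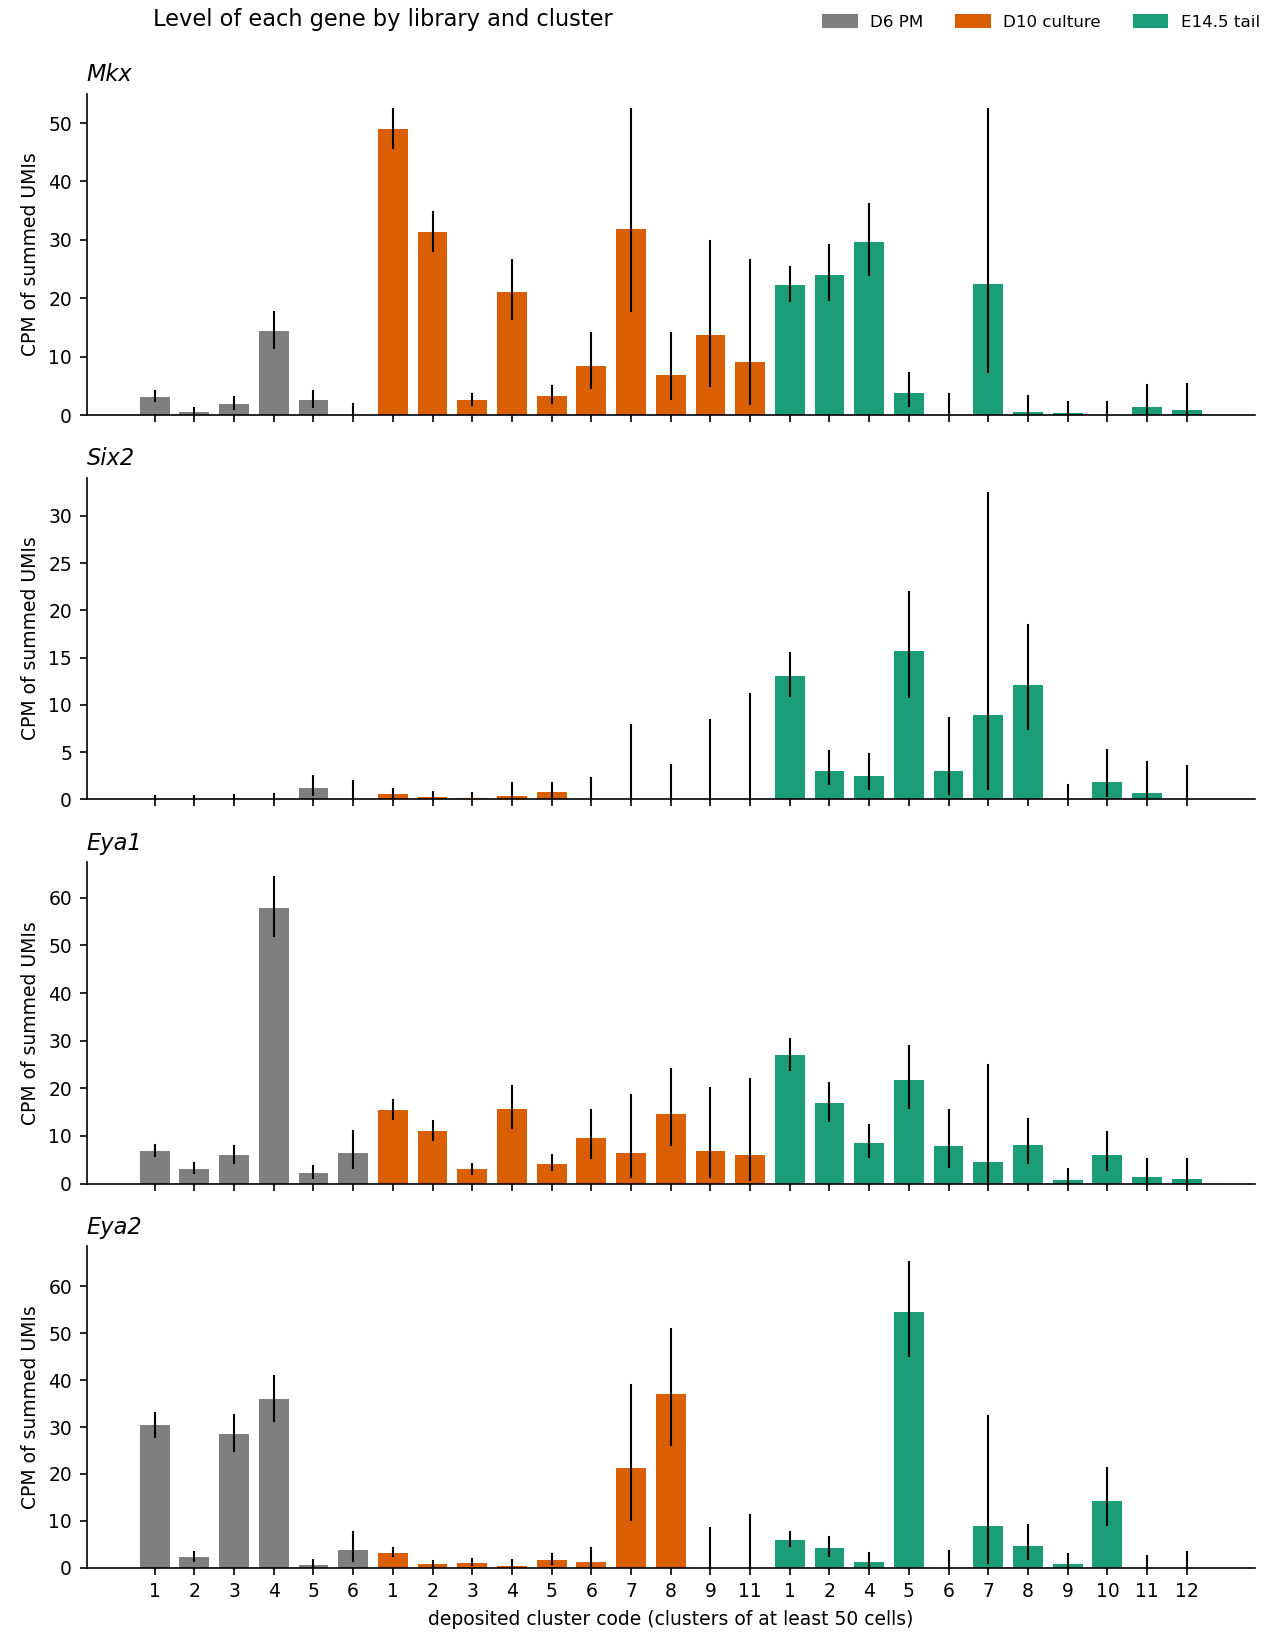
Level of each gene (CPM of summed UMIs, vertical axis) in each deposited cluster of at least 50 cells (horizontal axis), with grey bars for D6 PM, orange bars for the D10 culture and green bars for the E14.5 tail, and 95% Poisson intervals as black lines. *Mkx* stands highest in culture code 1 (48.9 CPM), *Six2* in tail codes 5, 1 and 8 with near 0 in both cultures, *Eya1* in D6 code 4 (57.9 CPM) and *Eya2* in tail code 5 (54.5 CPM).

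*Mkx* was concentrated in the *Scx*-expressing clusters. Codes 1, 2 and 4 together held 92.6% (91.1 to 94.0) of the *Mkx* UMIs of the culture and 93.7% (91.0 to 95.7) of those of the tail, although they held 57.3% and 56.7% of all UMIs. In the culture, the level was 48.9 CPM (45.6 to 52.4) in the tendon cluster. It was 31.3 CPM (28.0 to 34.8) in the proliferating tendon cluster and 21.0 CPM (16.4 to 26.6) in the fibrocartilage cluster. Tendon was thus the highest of the 3 in this library, and the intervals did not overlap. In the tail they lay close together and in the other order, at 22.3 CPM (19.5 to 25.4) in tendon, 24.0 CPM (19.6 to 29.1) in proliferating tendon and 29.6 CPM (24.1 to 36.1) in fibrocartilage.

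Most other clusters were lower. The pluripotent-like cluster of the culture, code 3 with 5 of 5 markers, had 2.56 CPM (1.73 to 3.65). In the tail, muscle (code 5, 6 of 6 markers) had 3.69 CPM (1.59 to 7.28), the blood cluster of code 12 had 0.942 CPM from 1 UMI, and neither the other blood cluster nor the nerve cluster of code 10 had any. The 38 cells of code 14, with 3 of 6 nerve and glia markers, were an exception at 17.2 CPM (8.61 to 30.9), which overlaps tail tendon. Code 7, a cluster of shallow cells that was left unnamed, had 31.8 CPM (17.8 to 52.4) in culture, but from 15 UMIs. In tail it had 22.4 CPM (7.28 to 52.3), from 5 UMIs that all lay in 1 cell. Among D6 cells, the somite-like cluster had the highest level at 14.3 CPM (11.5 to 17.7), and it held 48.3% of the *Mkx* UMIs of its library. *Mkx* was therefore already above its D6 surroundings in the somite-like cells, where the largest D6 cluster had 3.14 CPM (2.38 to 4.06).

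By share of cells, *Mkx* was found in 13.5% (12.2 to 14.9) of 2595 tendon cells of the culture and in 4.57% (3.13 to 6.43) of 678 tendon cells of the tail. The pluripotent-like cells of the culture had a UMI in 0.833%, with a median of 10369.5 UMIs per cell before thinning against 4918.5 in the tendon cluster. In tail blood (code 12) it was 0 of 125 cells, for an upper limit of 2.40%, at a median of 8391.5 UMIs per cell against 13463 in tail tendon. The share in tendon thus lay above these cells in both libraries. Without thinning, the shares were 20.4% in culture and 16.4% in tail, so that the gap between the libraries is much smaller where the deeper tail cells keep all their UMIs.

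*Six2* was a gene of the tail. Its highest level was 15.7 CPM (10.9 to 21.9) in muscle, followed by 13.0 CPM (10.9 to 15.5) in tendon and 12.0 CPM (7.46 to 18.4) in the skin epithelium of code 8, and these 3 did not differ beyond counting error. A second epithelial cluster of 49 cells, code 3, had 10.0 CPM (5.17 to 17.5). *Six2* did not follow *Scx* across the tail: the proliferating tendon cluster had 3.002 CPM (1.60 to 5.13) and the fibrocartilage cluster 2.42 CPM (1.04 to 4.77). The tendon cluster held 57.6% of the *Six2* UMIs of the tail and muscle 14.8%.

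In the culture, *Six2* was barely detected. The tendon cluster had 10 UMIs, or 0.603 CPM (0.289 to 1.11), and the proliferating tendon and fibrocartilage clusters had 3 and 1. A UMI was found in 5 of 2595 tendon cells, or 0.193%, which is below the upper limit of 0.278% set by 0 of 1081 pluripotent-like cells, so that the culture level is not separable from background at this depth. In the tail tendon cluster the share was 3.24% (2.04 to 4.87), an interval that holds the limit of 2.40% set by 0 of 125 cells of tail blood. Without thinning it was 11.4% (9.11 to 14.01), against 0 of 128 blood cells, and by level the 13.0 CPM of tail tendon lay above the upper bound of 3.47 CPM for blood. D6 PM had 8 *Six2* UMIs in all, of which 7 were in the fibroblast-like cluster of code 5 (4 of 4 fibroblast and 5 of 7 tendon markers) and none in the somite-like cells, where a count of 0 in 606 cells sets an upper limit of 0.495%.

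*Eya1* was highest in the somite-like cells of D6 PM, at 57.9 CPM (52.0 to 64.3), and these cells held 60.2% of its UMIs in that library. The other D6 clusters ran from 2.20 to 6.88 CPM. In the tail, tendon had 27.0 CPM (23.9 to 30.4), muscle 21.7 CPM (15.9 to 28.9) and proliferating tendon 16.9 CPM (13.2 to 21.2). The tail fibrocartilage cluster was lower, at 8.47 CPM (5.63 to 12.2). In the culture the same 3 clusters lay close together, with 15.4 CPM (13.6 to 17.4) in tendon, 11.02 CPM (9.12 to 13.2) in proliferating tendon and 15.6 CPM (11.7 to 20.5) in fibrocartilage. The endoderm-like epithelium of the culture (code 8) was at a like level of 14.6 CPM (8.19 to 24.1), while the pluripotent-like cluster had 2.98 CPM (2.08 to 4.15).

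The share of cells with an *Eya1* UMI was 15.8% (13.0 to 19.0) in the somite-like D6 cells, 6.78% (5.01 to 8.95) in tail tendon and 4.01% (3.29 to 4.84) in culture tendon. Without thinning, the shares were 20.0% in tail tendon and 7.25% in culture tendon. The pluripotent-like cells of the culture stood at 1.02% (0.509 to 1.81), and 0 of 125 cells of tail blood carried it. The somite-like D6 cells thus lay above both tendon clusters in share as in level.

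In culture and tail, *Eya2* had its highest levels outside the tendon cluster. In the tail it was highest in muscle, at 54.5 CPM (45.1 to 65.2), where 121 cells held 47.0% of its UMIs. Tail tendon had 6.02 CPM (4.61 to 7.74), proliferating tendon 4.16 CPM (2.46 to 6.57) and fibrocartilage 1.21 CPM (0.330 to 3.097). The nerve cluster of code 10 had 14.2 CPM (9.12 to 21.2), and the 38 cells of code 14 had 18.8 CPM (9.72 to 32.9). Among the culture clusters of at least 50 cells, the highest level was 37.1 CPM (26.2 to 50.9) in the endoderm-like epithelium, which was 1.98% of the cells and held 27.5% of the *Eya2* UMIs. Culture tendon had 3.26 CPM (2.45 to 4.25), proliferating tendon 0.747 CPM (0.323 to 1.47) and fibrocartilage 1 UMI.

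At D6, *Eya2* was high in the somite-like cells, at 35.9 CPM (31.3 to 41.0), but nearly as high in the endoderm-like epithelium of code 1, at 30.4 CPM (27.9 to 33.1), and in the proliferating cluster of code 3, at 28.6 CPM (24.9 to 32.6). The pluripotent-like D6 cells had 2.30 CPM (1.53 to 3.32). Within the endoderm-like D6 cluster, *Eya2* was found in 11.1% (9.52 to 12.8) of the cells with a UMI of the endoderm gene *Sox17* and in 6.53% (4.76 to 8.69) of those without. Both were found in 159 cells, against 138 if they were independent. The share of tendon cells with an *Eya2* UMI was 0.925% (0.593 to 1.37) in culture and 1.47% (0.709 to 2.70) in tail, or 1.69% and 6.13% without thinning, against 13.8% (7.91 to 21.7) in tail muscle. The culture share lay above the limit of 0.278% set by 0 of 1081 pluripotent-like cells after thinning. Without thinning, *Eya2* was in 0.919% (0.442 to 1.68) of the pluripotent-like cells, at a level of 1.02 CPM (0.529 to 1.79). The thinned share of tail tendon lay below the limit of 2.40% set by 0 of 125 cells of tail blood and is not separable from background at this depth, while the level from all UMIs, at 6.02 CPM (4.61 to 7.74), lay above the upper bound of 3.47 CPM for blood.

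Ranked over the 27 clusters of at least 50 cells, most neighbours in level did not differ beyond counting error. Of 26 neighbouring pairs, 1 did for *Mkx*, where culture fibrocartilage stood above the somite-like D6 cells. None did for *Six2*, which had no UMI in 11 of the 27 clusters. For *Eya1* it was the step from the somite-like D6 cells to tail tendon. For *Eya2* there were 2 such steps, from tail muscle to the endoderm-like epithelium of the culture and from the somite-like to the endoderm-like cells of D6. Against the top cluster itself, 24 clusters lay lower beyond counting error for *Mkx*, 23 for *Six2*, 26 for *Eya1* and 26 for *Eya2*.

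The study set the culture beside the tail to ask how near the mESC-derived *Scx* cells come to their embryonic counterparts. In the tendon cluster, *Mkx* was 2.19-fold (1.89 to 2.55) higher in culture than in tail. *Six2* was at 0.0462 (0.0217 to 0.0877) of its tail level, *Eya1* at 0.572 (0.481 to 0.681) and *Eya2* at 0.540 (0.368 to 0.792). Of the 4 genes, *Mkx* alone was thus above the tail. A gene was read against the whole library only where at least 10% of the cells of either group had a UMI, and there 19.4% of 10418 genes were at least 2-fold apart. *Mkx* met that limit in both groups and was past 2-fold. *Six2* and *Eya1* met it through the tail alone, with *Six2* in 0.337% and 11.4% of the unthinned cells of culture and tail, so that the 2-fold distance of *Six2* is a description and *Eya1* was within 2-fold. *Eya2* was in too few cells. The median gene was lower in culture by 0.21 on the log2 scale, and relative to it the share of the genes past 2-fold that were higher in culture rose from 29.7% to 42.5%. Relative to that median, *Mkx*, at a log2 ratio of 1.13, was further above it and *Six2*, at a log2 ratio of -4.43, remained far below it.

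In the proliferating tendon cluster, where 19.1% of 11232 genes were at least 2-fold apart between culture and tail, *Mkx* was at 1.30 (1.04 to 1.64) of the tail level and *Eya1* at 0.654 (0.484 to 0.887). Neither was past 2-fold, *Eya1* met the limit of 10% of cells through the tail alone, and *Six2* and *Eya2* were in under 10% of the cells of both groups. Their ratios were 0.0933 (0.0171 to 0.340) for *Six2* and 0.1797 (0.0676 to 0.434) for *Eya2*. In the fibrocartilage cluster the directions of *Mkx* and *Eya1* were exchanged, with *Mkx* at 0.710 (0.515 to 0.975) and *Eya1* at 1.85 (1.15 to 3.04) of the tail level. There 17.9% of 9986 genes were past 2-fold, and *Mkx*, the 1 member in enough cells, was not and met the limit through the tail alone, with 7.02% of culture cells against 22.4%. *Six2* and *Eya2* each had 1 UMI in culture fibrocartilage, with ratios of 0.124 (0.00280 to 0.927) and 0.249 (0.00505 to 2.51). Relative to the median gene, the share of higher genes moved from 28.8% to 40.6% in proliferating tendon and from 27.2% to 40.3% in fibrocartilage.

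**Figure D2:**
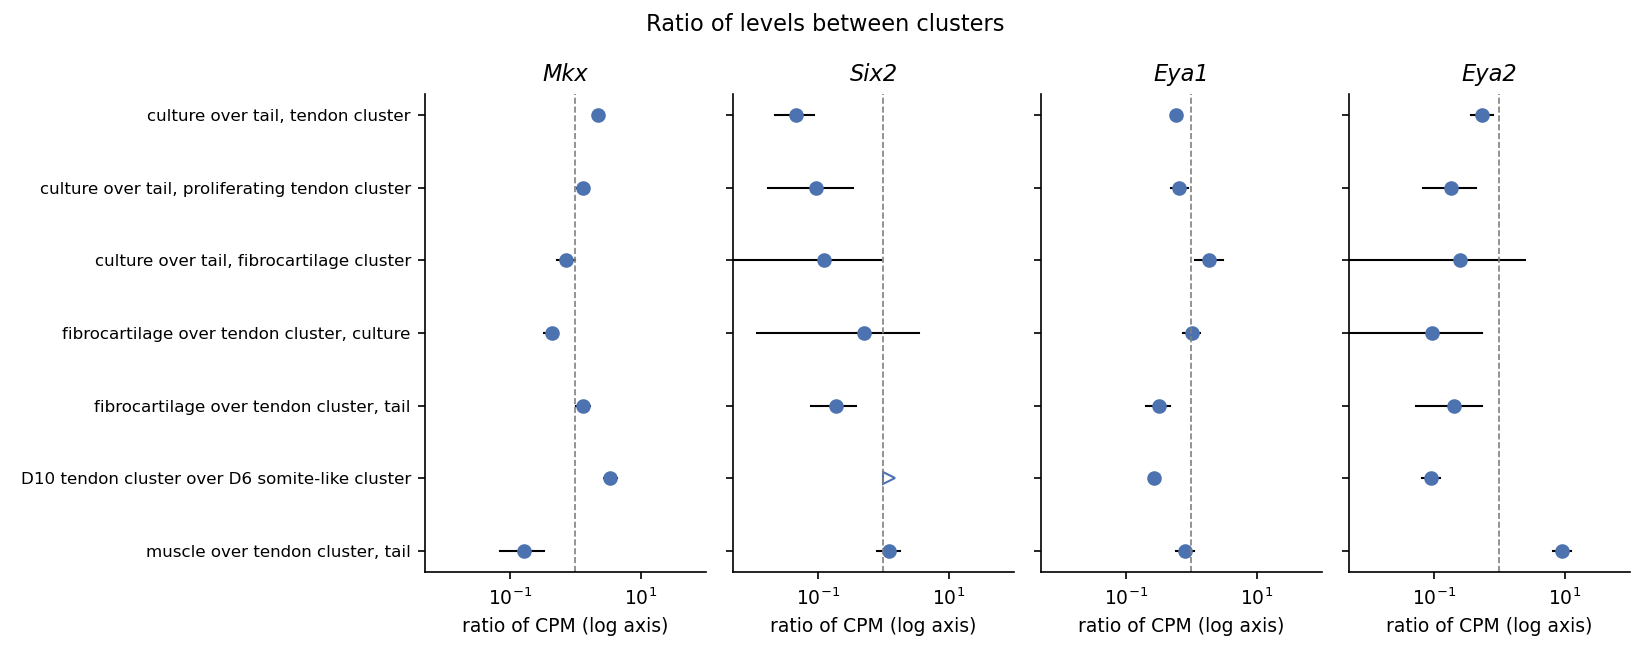
Ratio of CPM between clusters (horizontal log axis) for each gene, with 1 comparison per line, points for ratios, black lines for 95% intervals from the UMIs and a dashed line at a ratio of 1. Intervals that reach below 0.005 run to the edge of the panel, and the open triangle is a lower bound for a gene with no UMI in the second group. The points of *Mkx* change side between the tendon cluster (2.19) and the fibrocartilage cluster (0.710) of culture over tail, *Six2* is far to the left in all 3 culture over tail ratios, and *Eya2* stands far to the right only for muscle over tendon (9.04).

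A second question of the study is what separates tendon from fibrocartilage. Within the culture, *Mkx* in fibrocartilage was at 0.430 (0.332 to 0.549) of its tendon level, past 2-fold in a comparison where 4.90% of 7077 genes were, and it met the limit of 10% of cells through tendon alone. By a split described further on, it was at 11.4 CPM in fibrocartilage and 44.4 CPM in tendon among cells with 4 or more *Scx* UMIs. Among cells without *Scx* UMIs these levels were 27.5 CPM (11.04 to 56.6), from 7 UMIs, and 51.4 CPM (35.8 to 71.5), with overlapping intervals. *Eya1* was at 1.01 (0.737 to 1.37), and *Six2* at 0.499 (0.0115 to 3.51), an interval too wide to show a difference. *Eya2* was at 0.0924 (0.00230 to 0.537), from 1 UMI in fibrocartilage. Of the 4 genes *Mkx* alone was in enough cells to be counted there. Since it met the limit through the cluster in which it was higher, its 2-fold distance is a description.

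Within the tail the picture was another one. *Six2* in fibrocartilage was at 0.186 (0.0785 to 0.376) of its tendon level and *Eya1* at 0.314 (0.205 to 0.464), both past 2-fold, where 9.93% of 10654 genes were, and both met the limit of 10% of cells through tendon alone. *Eya2* was at 0.201 (0.0530 to 0.541), in too few cells to be counted. *Mkx* was slightly higher in fibrocartilage, at 1.33 (1.04 to 1.69), and not past 2-fold, but after thinning to 3000 UMIs it was at 2.10 (1.21 to 3.59), past 2-fold. So *Six2* and *Eya1* were higher in tendon in the tail and *Mkx* in the culture, while the *Eya2* ratios rest on 1 UMI in fibrocartilage of the culture and 4 in that of the tail.

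The study followed tendon and fibrocartilage induction from D6 to D10 by bulk RNA sequencing. Those cultures also received a retinoic acid receptor agonist for tendon or an inverse agonist for fibrocartilage, and by qPCR the study reported more *Mkx* with the agonist. Here the single-cell libraries of D6 and D10 were compared instead. The D10 culture of these libraries received neither compound from D6 on, so that the comparison is not of the same differentiation. *Mkx* was 3.42-fold (2.74 to 4.32) higher in the D10 tendon cluster than in the somite-like D6 cells, while *Eya1* was at 0.266 (0.226 to 0.314) and *Eya2* at 0.0908 (0.0661 to 0.123) of the D6 level. All 3 were past 2-fold, where 20.7% of 8934 genes were, and *Eya1* and *Eya2* met the limit of 10% of cells through D6 alone. *Six2* had 10 UMIs at D10, not separable from background, and none in the D6 cluster. Among genes past 2-fold, 47.9% were higher at D10, and 58.7% relative to the median gene, which was lower at D10 by 0.17 on the log2 scale. The D10 fibrocartilage cluster showed the same order against these D6 cells, with *Mkx* at 1.47 (1.06 to 2.04), *Eya1* at 0.270 (0.198 to 0.362) and *Eya2* at 0.00838 (0.000211 to 0.0472) of the D6 level, the last from 1 UMI at D10, and both comparisons share the D6 cells. The somite-like cluster also held cells of the muscle lineage, with *Myog*, a gene of muscle differentiation, at 78.6 CPM, and their part in its *Eya1* and *Eya2* levels was not tested beyond the joint detection given further on.

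Because Eya proteins and their Six-type partners are known from muscle, tail tendon was set beside tail muscle. *Eya2* was 9.04-fold (6.58 to 12.5) higher in muscle, and *Mkx* was at 0.165 (0.0706 to 0.332) of its tendon level. These 2 were past 2-fold, where 25.0% of 11246 genes were, and each met the limit of 10% of cells through the cluster in which it was higher. *Six2*, at 1.20 (0.8004 to 1.77), and *Eya1*, at 0.805 (0.577 to 1.10), were the 2 members whose intervals held 1. The 4 genes thus split into 1 on the tendon side, 1 on the muscle side and 2 at like levels in both.

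The tail tendon cluster was not uniform in *Scx*, and its cells were compared by their *Scx* UMIs after thinning, a split chosen after the data had been seen. In the tail, 431 of 678 cells of the cluster (63.6%) had no *Scx* UMI and 149 (22.0%) had 4 or more. In the culture it was 227 of 2595 (8.75%) and 1533 (59.1%). In the tail the *Mkx* level went with *Scx*, from 9.28 CPM (4.80 to 16.2) in cells without an *Scx* UMI to 13.6 CPM (3.71 to 34.8) with 1 to 3 and 42.5 CPM (25.6 to 66.4) with 4 or more. In the culture it did not rise with *Scx*, at 51.4 CPM (35.8 to 71.5), 65.1 CPM (55.5 to 75.9) and 44.4 CPM (38.5 to 50.9). There the level with 4 or more *Scx* UMIs was below that with 1 to 3, and these 2 intervals did not overlap. Among cells with 4 or more *Scx* UMIs, *Mkx* in culture was at 1.04 (0.651 to 1.77) of the tail level, and among cells with none it was 5.54-fold (2.81 to 11.7) higher. A difference in *Mkx* between the libraries was thus not detectable among cells with 4 or more *Scx* UMIs, where the tail had 19 *Mkx* UMIs.

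*Eya1* and *Six2* behaved otherwise. In tail tendon, *Eya1* stood at 26.3 CPM (18.2 to 36.7) without *Scx* UMIs and at 33.6 CPM (18.8 to 55.3) with 4 or more, so that it did not differ beyond counting error. Its culture level stayed lower among the cells with 4 or more, at 0.479 (0.273 to 0.900) of the tail. *Six2* was 14.7 CPM (8.85 to 22.9) in tail cells without *Scx* UMIs and 6.71 CPM (1.38 to 19.6) in those with 4 or more, with overlapping intervals, and its culture level was at 0.130 of the tail in the latter, from 4 UMIs in culture and 3 in tail. *Eya2* had at most 16 UMIs in any of these groups, too few for an order. In fibrocartilage the *Mkx* intervals of these groups overlapped within each library, which does not exclude a difference. The culture had 27.5 CPM (11.04 to 56.6) without *Scx* UMIs. It had 27.1 CPM (16.3 to 42.3) with 1 to 3 and 11.4 CPM (5.68 to 20.4) with 4 or more. The tail rose from 17.9 CPM (5.82 to 41.8) to 26.7 CPM (7.27 to 68.3) and 58.4 CPM (34.0 to 93.5). In tail proliferating tendon the *Mkx* intervals without *Scx* UMIs and with 4 or more did not overlap. The levels were 8.55 CPM (1.76 to 24.98) and 83.3 CPM (41.6 to 149.1), from 3 and 11 UMIs. In culture proliferating tendon they were 29.1 CPM (13.3 to 55.3) and 32.3 CPM (25.8 to 39.98).

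**Figure D3:**
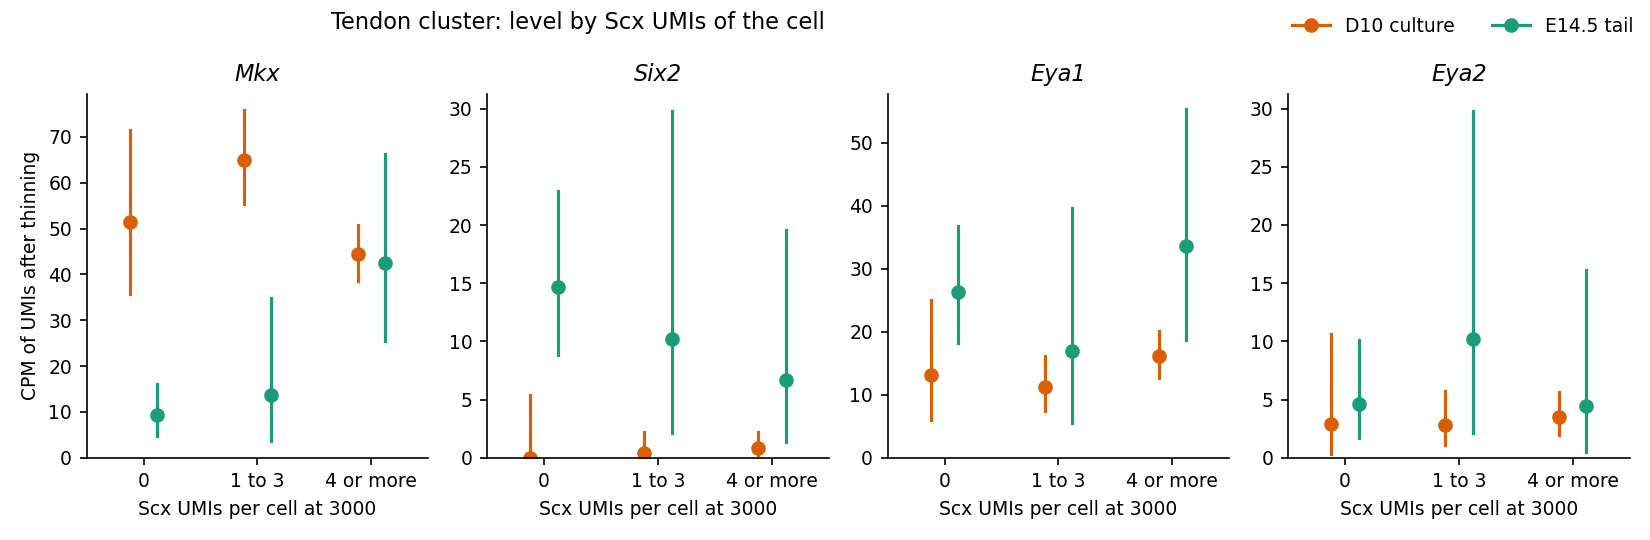
Level of each gene (CPM of UMIs after thinning to 3000 UMIs per cell, vertical axis) in cells of the tendon cluster with 0, 1 to 3, or 4 or more *Scx* UMIs (horizontal axis), with orange points for the D10 culture, green points for the E14.5 tail and lines for 95% Poisson intervals. The *Mkx* points of the tail climb from 9.28 to 42.5 CPM. Those of the culture lie between 44.4 and 65.1 CPM, highest with 1 to 3 *Scx* UMIs and lowest with 4 or more. The *Six2* points of the culture lie at or near 0 in all 3 groups.

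Joint detection was counted in the same thinned cells, so that its counts for *Scx* restate the split above. In tail tendon, 19 cells had UMIs of *Mkx* and *Scx*, against 11.3 if the genes were independent, and in culture tendon 319 did, against 320. With *Tnmd*, the gene of the tendon membrane protein tenomodulin, *Mkx* was found in 19.0% (9.87 to 31.4) of *Tnmd*-positive tail tendon cells and in 3.23% (1.98 to 4.94) of the others. In the culture these shares were 14% (7.87 to 22.4) and 13.5% (12.2 to 14.9). *Six2* and *Scx* met in 5 tail cells against 8.01 if independent. The members themselves were seldom seen in 1 cell: *Mkx* and *Eya1* met in 5 tail tendon cells against 2.10 and in 10 culture tendon cells against 14.1. These are counts of joint detection in sparse data, and no order is read from those of 5 cells or fewer.

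In the somite-like D6 cells, *Mkx* and *Eya2* were found more often in the cells with a *Myog* UMI. *Mkx* was in 20.0% (7.71 to 38.6) of 30 such cells and in 3.82% (2.41 to 5.73) of the others. *Eya2* was in 23.3% (9.93 to 42.3) and 6.42% (4.56 to 8.75). *Eya1* was not, at 10.0% (2.11 to 26.5) and 16.1% (13.2 to 19.4). *Mkx* and *Eya2* met in 7 of these D6 cells, against 2.03 if independent. Most cells with *Mkx* or *Eya2* lacked a *Myog* UMI all the same, and 3 of the 96 cells with *Eya1* had one.

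The wider families were read by the same rule, from lists chosen with results of these data known. Between culture and tail in the tendon cluster, *Six5*, a further gene of the Six-type class, was at least 2-fold lower in culture, at 10.2 against 26.3 CPM. *Six4*, which is also known from muscle, was not past 2-fold, at 25.0 and 31.4 CPM. Of 3 Eya genes tested, *Eya4* alone was past it, where 19.4% of all genes were, at 5.06 against 33.1 CPM, or 0.153 (0.119 to 0.195), while *Eya3* was at 20.0 and 18.4 CPM. *Dach1*, a cofactor of the same network, had 2.47 CPM in culture tendon and 29.3 CPM in tail tendon, or 0.0843 (0.0592 to 0.117). *Six5*, *Eya4* and *Dach1* met the limit of 10% of cells through the tail alone, with *Eya4* in 2.36% and *Dach1* in 1.21% of the culture cells, so that their distance is a description.

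Between the D6 somite-like cells and D10 tendon, *Six4* was not past 2-fold, with 32.4 CPM at D6 and 25.0 CPM at D10. *Eya1* and *Eya2* were 2 of 3 Eya genes tested and were both lower at D10, beside 962 of all 8934 genes, and *Dach1* was at 34.5 CPM at D6 and 2.47 CPM at D10. These 3 met the limit through D6 alone. *Six4* met it in both groups, so that no contrast of *Six4* with *Eya1*, *Eya2* and *Dach1* is drawn. In tail muscle against tail tendon, 2 of 4 Eya genes were higher, *Eya2* and *Eya4*, the latter at 80.8 CPM. Of all 11246 genes tested, 1059 were higher. *Eya2* met the limit through muscle alone, so that the count of Eya genes is a description. *Dach1* was also past 2-fold and higher in muscle, while *Six4*, at 39.2 CPM, was not past 2-fold. *Six5* was past 2-fold and lower in muscle, beside 1755 of all genes, and met the limit through tendon alone. Within the tail, *Eya1* and *Eya4* among 3 Eya genes tested were at least 2-fold lower in fibrocartilage than in tendon, as was *Six2*. This stood beside 669 of all 10654 genes, and no Eya gene was higher. *Eya1* and *Six2* met the limit through tendon alone, so that this count is a description.

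**Figure D4:**
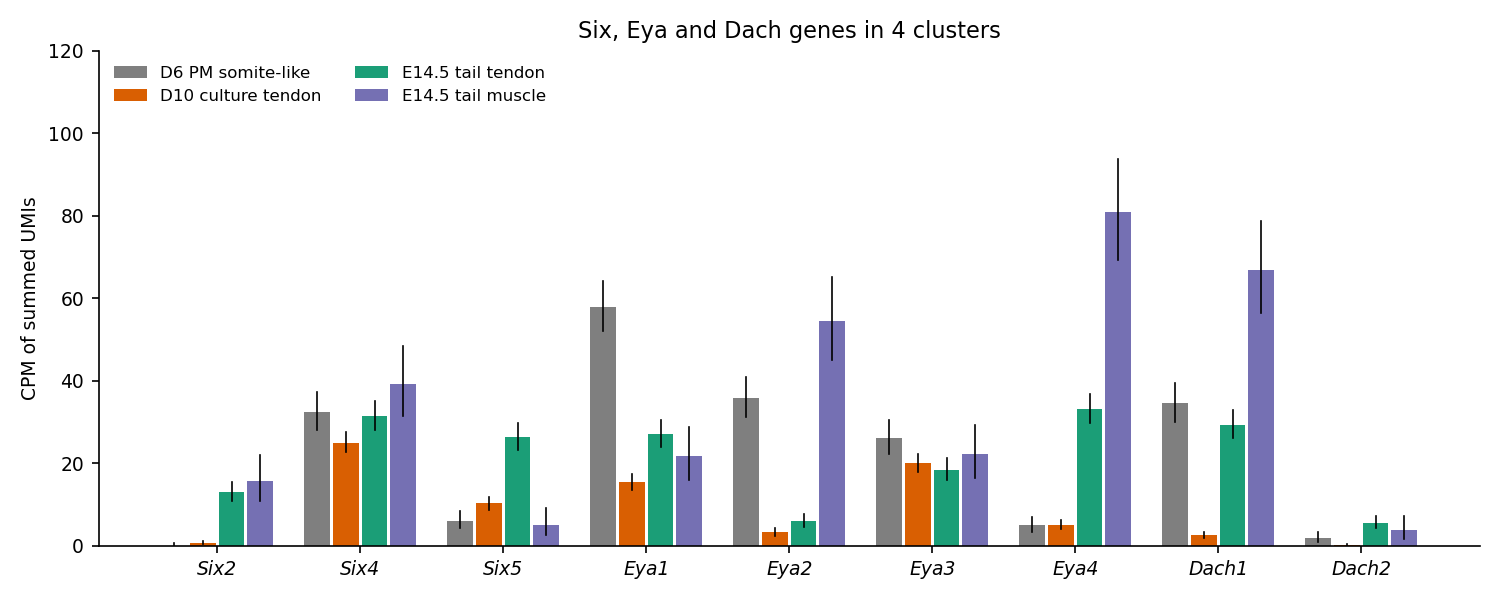
Level (CPM of summed UMIs, vertical axis) of Six-, Eya- and Dach-family genes (horizontal axis) in the D6 PM somite-like cluster (grey), D10 culture tendon (orange), E14.5 tail tendon (green) and E14.5 tail muscle (violet), with 95% Poisson intervals. Bars are to be compared within a gene: culture tendon is the lowest or nearly the lowest bar for *Six2*, *Eya1*, *Eya2*, *Eya4* and *Dach1*, while the 4 bars of *Six4* and of *Eya3* lie within 2-fold of each other.

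Relatives of *Mkx* were read by the same rule. Of the Iroquois genes, *Irx1* was at 3.62 CPM in culture tendon and 33.4 CPM in tail tendon, *Irx3* at 0.543 and 51.3 CPM and *Irx5* at 0.422 and 94.4 CPM. These 3 met the limit of 10% of cells through the tail alone, so that their distance is a description. Of 10 genes on a list of TALE factors, *Pknox2* was past 2-fold and higher in culture, 4 were past it and lower, *Meis3* of them met the limit through the tail alone, and 5 were not past it. Among 10 tendon transcription factors tested, 4 were higher in culture, *Mkx*, *Tcf15*, *Foxc1* and *Foxc2*, and 5 were lower, *Egr1*, *Osr1*, *Osr2*, *Tbx4* and *Tbx5*, beside 600 higher and 1420 lower of all genes tested, or 19.4% past 2-fold. *Foxc2* met the limit through the culture alone and *Osr1*, *Osr2*, *Tbx4* and *Tbx5* through the tail alone, so that these counts are a description. *Scx* itself, at 2410 and 1472 CPM, was not past 2-fold. Of 6 tendon matrix genes, *Fmod*, a small proteoglycan of tendon, was higher in culture and *Tnmd*, at 23.6 against 93.0 CPM, was lower and met the limit through the tail alone.

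Over the 27 clusters, the genes whose levels followed each member most closely were ranked by Pearson's correlation of log2(CPM + 1) among 8412 genes. The clusters share libraries and, in culture and tail, cell types, so that these values are a description. For *Mkx* they were *Foxc2* (0.85), *Chodl* (0.82), *Meox1* (0.81), *Foxc1* (0.81) and *Fgf18* (0.80), among them forkhead and homeobox factors of the somite. For *Eya1* they were *Epha7* (0.80), *Parm1* (0.76), *Rdh10* (0.74), *Vcan* (0.72) and *Mum1l1* (0.72). For *Eya2* the first was *Pax3* (0.78), a regulator of muscle precursors, followed by *Nudt10* (0.75), *Dusp26* (0.75), *Ctnnd2* (0.73) and *Lhx1* (0.73). For *Six2* they were *Gm14094* (0.77), *Hoxd11* (0.76), *Isl1* (0.76), *Gm8420* (0.75) and *Hoxc11* (0.74). Under Spearman's correlation 0 of these 5 remained, and *Gm14094* and *Gm8420* were high in nearly every tail cluster and near 0 in those of both cultures. Among the members, *Mkx* and *Eya1* correlated at 0.54, *Eya1* and *Eya2* at 0.49 and *Six2* and *Mkx* at 0.06.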

How the data were processed

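Single-cell RNA sequencing of 3 libraries (10x Genomics 3′ v3) was analysed, with 1 library per condition. The authors deposited raw UMI counts, 1 whole number for every gene in every cell, beside a cluster code for every cell. Per the labels and the study's methods, the authors used Cell Ranger and Seurat 3.0, ignored reads that map to several places, and removed cells above 7.5% mitochondrial transcripts and the lowest and highest 2% of cells. The genome reference of these counts is not given in the sources used here, so no coordinates are printed.

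UMIs were summed per cluster with NumPy 2.4.6 and SciPy 1.17.1 in Python 3.11.15. All 95% intervals are exact. Those of levels are Poisson, those of ratios are conditional binomial and those of shares are Clopper-Pearson. Cells were thinned with random seed 1. Cells are not replicates, and no p-values were computed. The limit of a share with a count of 0 and the floor of a ratio are 3 counts. The upper bound of a level with a count of 0 is the end of its Poisson interval. Counts of genes past 2-fold are over genes with a UMI in 10% or more of either group's cells. This rule was run on simulated counts with planted changes well above 2-fold in better-detected genes. The simulated counts had no spread between cells beyond counting error, so that ratios near 2-fold and sparse genes were not covered. The culture over tail comparisons of proliferating tendon and fibrocartilage were not simulated. Doublets called by Scrublet (Scanpy 1.11.5, expected rate 6%) were 1.48%, 0.439% and 1.36% of the culture, tail and D6 cells and were kept. Named genes were the members, their family, regulator and marker lists, and the 5 genes most like each member, among genes with at least 50 CPM in 1 cluster and 200 UMIs in all. An item of these lists is not reported here. The members and lists were chosen with earlier results of these data known. Alternatives varied thinning, the cells, the total, the fold, the detection limit and the likeness measure. Figures were drawn with Matplotlib 3.10.9. The bulk data of the study were not analysed here.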

Additional observations from a re-analysis of the deposited data

Results flagged for a closer look

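*Mkx* stood apart because its tendon to fibrocartilage order was opposite in culture and in tail. Fibrocartilage was at 0.430 of the tendon level in culture and at 1.33 in tail, with intervals that do not hold 1 in either. The tail side is weak. By unthinned share of tail cells, *Mkx* was in 22.4% (17.3 to 28.2) of fibrocartilage and 16.4% (13.7 to 19.3) of tendon, with overlapping intervals. Among tail cells with 4 or more *Scx* UMIs these clusters had 58.4 CPM (34.0 to 93.5) and 42.5 CPM (25.6 to 66.4). Without *Scx* UMIs they had 17.9 CPM (5.82 to 41.8) and 9.28 CPM (4.80 to 16.2), so that both pairs overlap. The difference between the 2 ratios was not tested, since each rests on 1 library.

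*Mkx* and *Eya1* also differed in direction between clusters when culture was set over tail. *Mkx* was at 2.19 in the tendon cluster, 1.30 in the proliferating tendon cluster and 0.710 in the fibrocartilage cluster. *Eya1* was at 0.572, 0.654 and 1.85 in the same order. These differences were not tested either. Beside them, the share of cells without an *Scx* UMI in the tendon cluster was 8.75% in culture and 63.6% in tail. For *Eya1* the ratio in the tendon cluster was 0.479 (0.273 to 0.900) among cells with 4 or more *Scx* UMIs and 0.503 (0.212 to 1.07) among those without one. For *Mkx* the ratio in the tendon cluster was 1.04 (0.651 to 1.77) among cells with 4 or more *Scx* UMIs and 5.54 (2.81 to 11.7) among those without one.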

How the results depend on the processing

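No paired analysis was possible because each condition is 1 library. Of 99 ratios recomputed with other cells, totals, means or thinning, 96 stayed within their counting interval. They were values of 20 ratios, and the culture over tail ratios of the proliferating tendon and fibrocartilage clusters were not among these. None of the 20 whose interval left out 1 changed direction. In muscle over tendon, where both intervals held 1, *Six2* went from 1.20 to 0.841 by the mean over cells and 0.9952 after thinning. *Eya1* went from 0.805 to 1.04 after thinning. Without called doublets, without cells under 1000 genes, or with haemoglobin, mitochondrial and ribosomal protein genes left out of the total, all 20 ratios stayed within their counting interval in each case. Summing UMIs after thinning to 3000 gave 3.001 for *Mkx* in culture over tail tendon and 2.10 for *Mkx* in fibrocartilage over tendon of the tail, and the mean over cells gave 0.452 for *Eya1* in culture over tail tendon. The split by *Scx*, added after the data had been seen, gave in cells with 4 or more UMIs 1.04 for *Mkx*, 0.130 for *Six2* and 0.479 for *Eya1* in culture over tail tendon and 0.257 for *Mkx* in fibrocartilage over tendon of the culture. In cells without *Scx* UMIs, *Mkx* was at 5.54 in culture over tail tendon and at 1.93 in fibrocartilage over tendon of the tail. The cause of these shifts was not tested. Depth limits the shares of cells. At 5000 UMIs per cell they were 20.8% for *Mkx*, 6.41% for *Eya1* and 2.04% for *Eya2* in culture tendon and 8.43%, 5.87%, 10.5% and 3.16% for *Mkx*, *Six2*, *Eya1* and *Eya2* in tail tendon. Unthinned they were 20.4%, 7.25% and 1.69%, and 16.4%, 11.4%, 20.0% and 6.13%. At a fold of 1.5, 3969, 4226 and 3665 genes were apart between culture and tail in tendon, proliferating tendon and fibrocartilage, 907 and 2085 between fibrocartilage and tendon in culture and tail, 3606 between D10 and D6 and 4896 between muscle and tendon, where the 2-fold counts were 2020, 2143, 1785, 347, 1058, 1845 and 2814. With detection in 5% of cells, 558 and 1612 were past 2-fold between fibrocartilage and tendon in culture and tail. Of the 5 genes most like each member, 3, 0, 4 and 2 were shared under Spearman's correlation and 3, 3, 2 and 1 with log2(CPM + 10), for *Mkx*, *Six2*, *Eya1* and *Eya2*. In tail tendon at 5000 UMIs, *Mkx* and *Scx* met in 37 cells against 22.9 if independent.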
